A study of Mus musculus with 2 samples.

Results

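Interferon-stimulated genes are the set of genes that cells switch on after interferon binds its receptor. A fixed list of 42 such genes was followed here in mouse lung RNA. A member was every record of the deposited tables whose symbol equals a listed gene, and values of several records of a gene were summed. All 42 symbols were present among the 22072 genes of the tables. The control pool held lungs of mice with floxed Foxf1 alleles alone (Foxf1 fl/fl). The knockout pool held lungs of mice with the same alleles and the inducible Cre recombinase Pdgfb-iCreER (Pdgfb-iCreER / FoxF1 fl/fl), which is driven by the Pdgfb promoter, active in endothelium. Both groups are given as background strain C57/BL6, and RNA from the lungs of several animals went into 1 library a genotype. How many mice were used, their age and sex, and when Cre was induced are details the sources used here do not give. Controls carried no Cre, so an effect of Cre, of its inducer or of its transgene cannot be told apart from one of reduced Foxf1. With 1 library a genotype no difference has a replicate check, and no p-value is given.

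Type I interferons act on the receptor pair IFNAR1 and IFNAR2, whose kinases JAK1 and TYK2 activate transcription factors such as STAT2. STAT2 and IRF9 are parts of ISGF3, a complex that binds the interferon-stimulated response element (ISRE) in promoters. Interferon gamma acts through IFNGR1 and IFNGR2, JAK1 and JAK2, and its signal reaches promoters at the gamma-activated site (GAS). The induced genes detect foreign RNA or DNA, block translation and viral entry, or damp the signal, and lung epithelium, endothelium and macrophages all express them.

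Values are FPKM, fragments per kilobase of transcript scaled to the size of the library, so levels of different genes can be compared per length. The libraries held about 13220000 reads on transcripts for the control pool and 10400000 for the knockout pool, estimated from the deposited coverage. Foxf1, listed as Foxf1a, was at 72.1 FPKM in control lung and 15.7 in knockout lung, 4.59-fold lower (3.96 to 5.33). The lung markers Sftpc, Scgb1a1, Ager, Cldn5 and Foxj1 were all present in both libraries, from 12.2 FPKM upwards. All 5 were lower in knockout lung, with intervals of the knockout over control ratio below 1. Cldn5 of endothelium and Scgb1a1 of club cells were over 1.5-fold lower. Foxj1 was 1.43-fold lower (1.26 to 1.61), Sftpc 1.155-fold (1.147 to 1.162) and Ager 1.12-fold (1.10 to 1.14). Of all genes over the floor set below, 4.63% were at least 1.5-fold lower and 21.9% had intervals below 1. Intervals after a fold are 95% exact conditional (Clopper-Pearson) intervals of the FPKM ratio from approximate reads and cover counting error only. Log2 ratios are log2(FPKM + 1) of the knockout pool minus that of the control pool, a scale that understates differences of low genes.

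The interferon-stimulated genes were on balance higher in the knockout pool, led by Rsad2, Zbp1, Isg15, Irf7 and Dhx58, while the abundant Irf1, Samhd1 and Ifitm1 were lower. Of the 42, 41 had a mean FPKM of 1 or more and only Oas3 fell below that floor. On the log2(FPKM + 1) scale 14 of the 41 reached 1.5-fold higher in knockout lung, against 9.41% of all 12929 genes over the floor. None of the 41 was as far lower, against 4.63% of all genes. At least 2-fold higher were 5 members, against 3.75% of all genes, and this count was 8 with a pseudocount of 0.1 in place of 1. The counting interval of the ratio lay above 1 for 28 members, against 33.3% of all genes, and below 1 for 5, against 21.9%. The median log2 ratio was 0.33 over the 41 members and 0.05 over all genes. These shares describe the libraries, and the list was chosen with results of these data known. In whole-lung RNA a change in the number of cells of a type and a change in RNA per cell cannot be told apart.

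**Figure D1:**
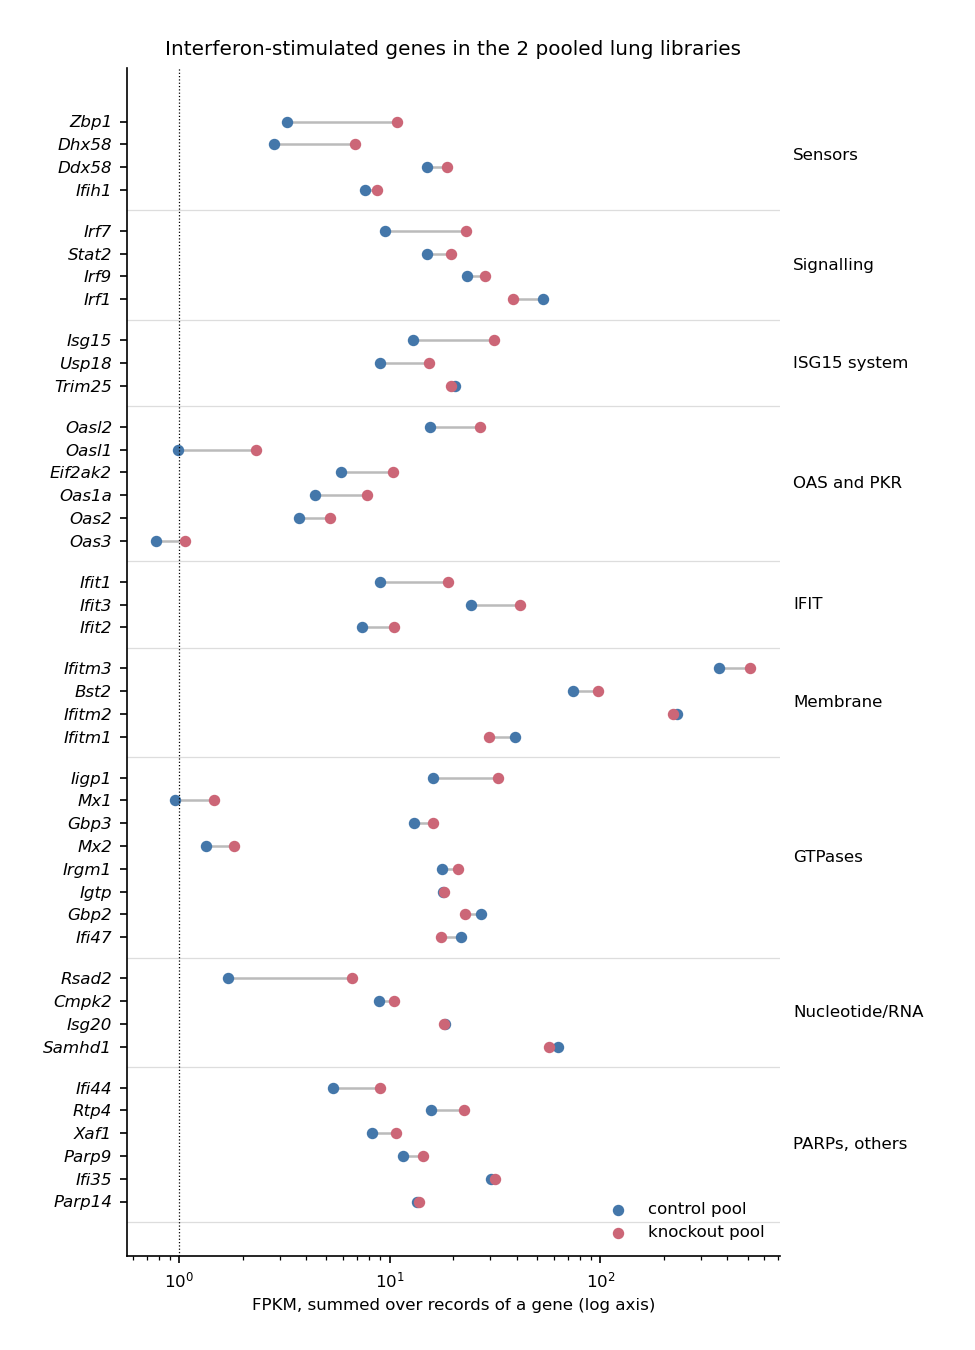
FPKM of each of the 42 genes (log axis, 1 row a gene, grouped by role) in the control pool (blue) and the knockout pool (red), with a dotted line at 1 FPKM. Levels run from under 1 FPKM for Oas3 in the control pool to 515 FPKM for Ifitm3 in the knockout pool, and the widest gaps are those of Rsad2 and Zbp1.

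Markers of immune cells, which carry many interferon-stimulated transcripts, differed by cell type. For the counts below, 9.41% of all genes over the floor were at least 1.5-fold higher and 4.63% as far lower. Each list holds few genes. The 7 monocyte markers had a summed level of 95.9 FPKM in control lung and 148 in knockout lung, with 3 of 7 at least 1.5-fold higher (Nr4a1, F13a1 and Cx3cr1). Of that sum Ly6c2 held 44.6 FPKM in control lung and 60.7 in knockout lung, and Plac8 24.3 and 33.5 FPKM. Nr4a1 held 8.665 and 27.4 FPKM, while Ccr2 was level at 7.935 and 7.881 FPKM. The 7 neutrophil markers summed to 59.8 and 89.7 FPKM, also with 3 of 7 higher (Retnlg, Camp and S100a9). The largest parts of that sum were S100a8, at 25.9 and 36.6 FPKM, and S100a9, at 21.7 and 34.7 FPKM. Intervals of Csf3r, Cxcr2 and Mmp9 include 1, and Cxcr2 lay below equality at 2.44 and 2.21 FPKM. The lists of lymphocytes were mixed. T cell markers summed to 24.2 and 23.3 FPKM, with none of 7 over the floor past 1.5-fold, and NK cell markers to 20.1 and 14.2 FPKM, with 2 of 5 lower (Gzma and Gzmb). B cell markers summed to 32.61 and 42.02 FPKM, with none of 4 past 1.5-fold. Alveolar macrophage markers summed to 368 and 381 FPKM, with Marco higher and Ear2 and Siglec5 lower among 6. Conventional dendritic cell markers summed to 22.9 and 19.6 FPKM, with Clec9a lower among 4 over the floor. Of 5 markers of plasmacytoid dendritic cells, a main source of type I interferon, 4 were under the floor, with Siglech at 0.775 and 0.652 FPKM, Ccr9 at 0.289 and 0.220 FPKM, Klk1 at 0.705 and 0.751 FPKM and Pacsin1 at 0.143 and 0.244 FPKM. Cox6a2, the marker over the floor, was at 10.2 and 7.23 FPKM, with an interval below 1. The other 4 were far less abundant, with intervals that include 1, so Cox6a2 alone gives no measure of these cells. No marker of these 8 cell types was listed at 0 in both pools. The part of monocytes and neutrophils in the higher interferon-stimulated genes was not tested.

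The promoters of several of these genes hold ISRE cores, which are shown for members that were higher and for members that were not. RefSeq promoter windows (GRCm38.p6, 250 bases before to 50 after an annotated start) matched 32 of the 42 genes. Not matched were Dhx58, Iigp1, Mx1, Mx2, Oas2, Parp14, Parp9, Rtp4, Usp18 and Zbp1. The ISRE core searched was GAAANNGAAA on either strand, and the GAS core was TTCNNNGAA, which reads the same on both strands. Neighbouring ISRE cores can overlap each other. The ISRE core was in a window of 17 of the 32 genes (53.1%), against 3.99% of 27025 genes of the table. The GAS core was in a window of 10 (31.2%), against 9.55% of those genes. These are lists of known interferon targets, so the share is a description of the list.

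In the stretches of 60 bases below, written 5′ to 3′ along the gene, capitals mark the ISRE cores. The first 6 belong to all the members with a window, an ISRE core and a level 1.5-fold or more above the control pool. Rsad2 lies on the minus strand (chr12:26456538-26456597), as do Isg15 (chr4:156200856-156200915), Oas1a (chr5:120907508-120907567) and Eif2ak2 (chr17:78882523-78882582). Ifit1 (chr19:34640769-34640828) and Ifit3 (chr19:34583365-34583424) lie on the plus strand.
Rsad2: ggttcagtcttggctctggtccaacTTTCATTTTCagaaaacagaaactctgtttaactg
Isg15: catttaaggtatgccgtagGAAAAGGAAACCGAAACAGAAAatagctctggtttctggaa
Ifit1: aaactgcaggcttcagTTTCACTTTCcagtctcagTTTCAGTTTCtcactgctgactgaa
Ifit3: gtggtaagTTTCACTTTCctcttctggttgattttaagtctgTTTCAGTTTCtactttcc
Oas1a: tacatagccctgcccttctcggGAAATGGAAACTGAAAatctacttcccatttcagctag
Eif2ak2: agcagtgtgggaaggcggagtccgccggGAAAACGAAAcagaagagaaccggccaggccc

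Isg15 holds 3 overlapping cores within these bases, Ifit1, Ifit3 and Oas1a hold 2 each, and Rsad2 and Eif2ak2 hold 1 each. The core of Rsad2 begins 120 bases before the annotated start, and that of Eif2ak2 lies after it. The next stretches show ISRE cores of Gbp2 (chr3:142620579-142620638, plus strand) and Ifitm2 (chr7:140955973-140956032, minus strand), neither of which was higher in knockout lung.
Gbp2: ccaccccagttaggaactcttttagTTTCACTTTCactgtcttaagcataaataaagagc
Ifitm2: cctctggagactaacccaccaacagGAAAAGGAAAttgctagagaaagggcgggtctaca

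Irf1, the lowest member by ratio, had no ISRE core in its 2 windows. It had a GAS core, in capitals here, that begins 90 bases before the annotated start of 1 window (chr11:53769898-53769957, plus strand).
Irf1: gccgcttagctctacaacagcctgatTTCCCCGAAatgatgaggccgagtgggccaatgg

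Among the members over the floor that have a window, 6 of the 10 at least 1.5-fold higher held an ISRE core, and 10 of the 21 within 1.5-fold did. The GAS core was in 2 of those 10 and in 8 of those 21. Irf7, Oasl1, Oasl2 and Ifi44 were at least 1.5-fold higher with no ISRE core in their windows, which says only that these letters are not there.

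**Figure D2:**
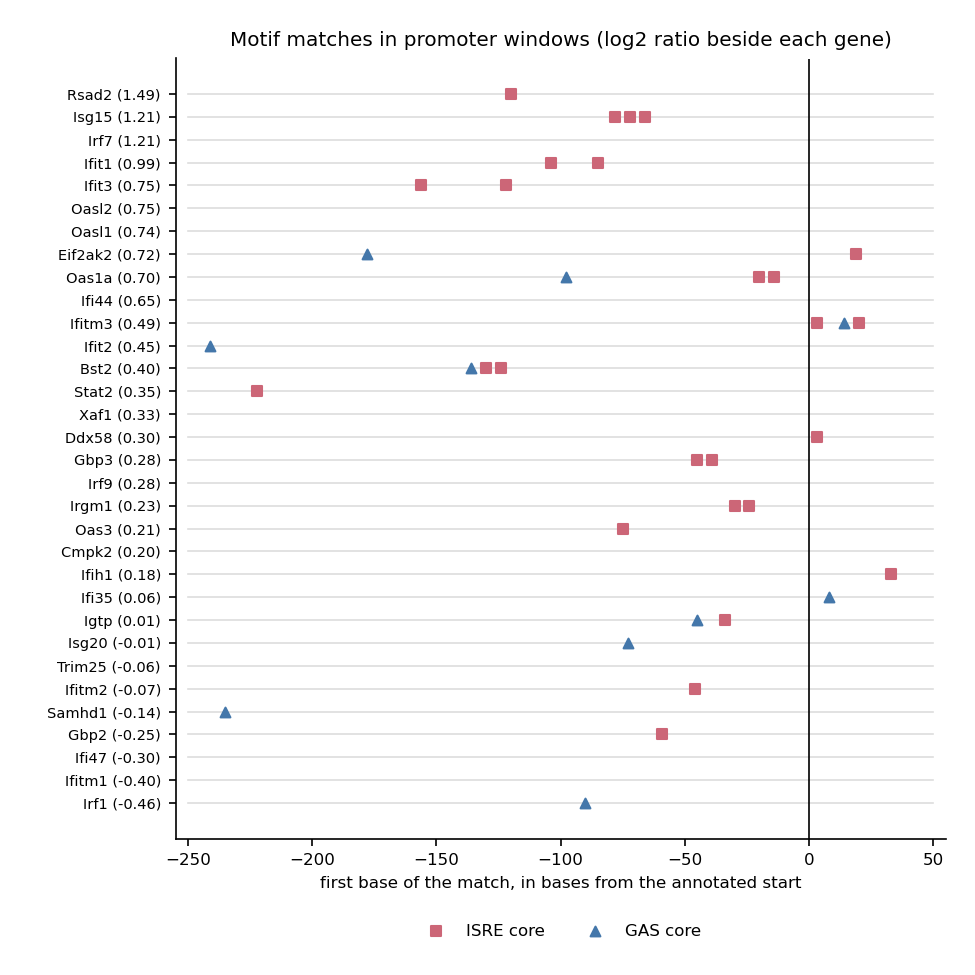
Position of ISRE cores (red squares) and GAS cores (blue triangles) in the promoter windows of 32 members, as the distance in bases of the first base of each match from the annotated start. Genes run from the highest log2 ratio (Rsad2) to the lowest (Irf1), matches of several windows of a gene share a row, and ISRE cores appear from Rsad2 down to Gbp2 but in none of the 3 lowest genes (Ifi47, Ifitm1 and Irf1).

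The sensors of foreign nucleic acid differed in size of change, with 2 of 4 at least 1.5-fold higher, against 9.41% of all genes. Zbp1, a sensor of Z-form nucleic acids that can trigger cell death, was at 3.24 FPKM in control lung and 10.9 in knockout lung. That is 3.35-fold higher (2.55 to 4.47), from about 74 and 179 reads. Dhx58 encodes LGP2, a RIG-I-like helicase without the signalling domain of its relatives. Its level was 2.82 FPKM in control lung and 6.86 in knockout lung, 2.44-fold higher (1.93 to 3.09). The other two are the RNA helicases that start the antiviral signal. Ddx58, which encodes RIG-I, stood at 15.0 and 18.7 FPKM, 1.25-fold higher (1.15 to 1.35). Ifih1, which encodes MDA5, stood at 7.61 and 8.73 FPKM, 1.15-fold higher (1.03 to 1.28).

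The transcription factors split. Irf7, which amplifies type I interferon production and is itself induced by interferon, had 9.45 FPKM in control lung and 23.1 in knockout lung, 2.44-fold higher (2.11 to 2.83). The partners of ISGF3 differed far less than Irf7. Stat2 stood at 15.0 and 19.5 FPKM, 1.29-fold higher (1.19 to 1.41), and Irf9 at 23.3 and 28.4 FPKM, 1.22-fold higher (1.11 to 1.34). Irf1, which responds to interferon gamma and to other stimuli and acts on promoters of the gamma response, went the other way. Its level was 53.1 FPKM in control lung and 38.4 in knockout lung, 1.38-fold lower (1.28 to 1.49).

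Isg15 encodes a ubiquitin-like protein that is conjugated to other proteins in the interferon response. Its level was 12.9 FPKM in control lung and 31.2 in knockout lung, 2.42-fold higher (1.999 to 2.961). Usp18, the protease that removes ISG15 and damps signalling at the type I receptor, was at 8.99 and 15.3 FPKM, 1.70-fold higher (1.45 to 2.01). Trim25, a ubiquitin ligase that acts with RIG-I, was at 20.3 and 19.5 FPKM, with an interval that includes equality.

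Genes whose products act on double-stranded RNA were higher in the knockout pool in 5 of 5 members over the floor, 4 of them at least 1.5-fold. Of all genes over the floor, 56.8% lay above equality and 9.41% were at least 1.5-fold higher. The oligoadenylate synthetases activate RNase L, and Eif2ak2 encodes PKR, a kinase that stops translation. Oas1a was at 4.41 FPKM in control lung and 7.81 in knockout lung, 1.77-fold higher (1.41 to 2.23). Eif2ak2 was at 5.87 and 10.3 FPKM, 1.76-fold higher (1.546 to 1.999). The related Oasl1 and Oasl2 encode synthetase-like proteins. Oasl2, the most abundant of this group, was at 15.5 and 26.7 FPKM, 1.73-fold higher (1.57 to 1.90). Oasl1 was at 0.987 and 2.31 FPKM, 2.34-fold higher with a wide interval (1.51 to 3.62) from about 35 and 63 reads. Oas2 stood at 3.69 and 5.17 FPKM, 1.40-fold higher (1.17 to 1.68). Oas3, under the floor at 0.779 and 1.06 FPKM, had an interval that includes equality. Oas1a shares sequence with its neighbour Oas1g, at 1.04 and 2.43 FPKM, and their sum was 5.46 and 10.2 FPKM.

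The IFIT proteins bind foreign or unmodified RNA and hinder its translation. Ifit1 was at 9.03 FPKM in control lung and 18.98 in knockout lung, 2.10-fold higher (1.85 to 2.39). Ifit3 was at 24.3 and 41.6 FPKM, 1.71-fold higher (1.56 to 1.88). Ifit2 was at 7.38 and 10.4 FPKM, 1.41-fold higher (1.248 to 1.605). All 3 lay above equality, as did 56.8% of all genes over the floor. Ifit3 has a close relative beside it, I830012O16Rik, at 10.5 and 16.1 FPKM, and the sum of both genes was 34.8 and 57.7 FPKM. Ifit1 has 2010002M12Rik, which was lower in knockout lung at 1.14 and 0.620 FPKM, and their sum was 1.93-fold higher at 10.2 and 19.6 FPKM. How reads of such related genes were divided is a step the sources used here do not describe.

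The membrane proteins of the list were its most abundant members and none of the 4 differed by 1.5-fold. Of all genes over the floor, 9.41% were as far higher and 4.63% as far lower. The IFITM proteins restrict the entry of viruses at cell membranes. Ifitm3 was at 365 FPKM in control lung and 515 in knockout lung, 1.41-fold higher (1.35 to 1.47). Ifitm2 was at 231 and 220 FPKM, with an interval that includes equality. Ifitm1 was at 39.4 FPKM in control lung and 29.7 in knockout lung, 1.33-fold lower (1.14 to 1.55). These 3 genes lie next to each other on chromosome 7 and are alike in sequence, so their separate values depend on how shared reads were assigned. Bst2, which encodes tetherin, a protein that holds budding virus at the surface, was at 73.8 and 97.7 FPKM, 1.33-fold higher (1.21 to 1.45).

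Among 8 interferon-induced GTPases only Iigp1 (12.5%) was at least 1.5-fold higher, near the 9.41% of all genes over the floor. Iigp1 is an immunity-related GTPase that attacks the vacuoles of intracellular parasites, and it stood at 16.01 FPKM in control lung and 32.8 in knockout lung, 2.05-fold higher (1.87 to 2.24). Its relatives differed less and not in 1 direction. Irgm1 was at 17.75 and 20.98 FPKM, 1.18-fold higher (1.06 to 1.32). Igtp was at 17.83 and 18 FPKM, with an interval that includes equality, and Ifi47 was 1.24-fold lower (1.09 to 1.42) at 21.7 and 17.4 FPKM. The guanylate-binding proteins act on the same vacuoles. Gbp3 stood at 13.02 and 16.03 FPKM, 1.23-fold higher (1.09 to 1.39), while its neighbour Gbp2 was 1.197-fold lower (1.089 to 1.318) at 27.2 and 22.7 FPKM. The dynamin-like Mx1 and Mx2, which are not functional in most inbred mouse strains, were barely detected. Mx1 was at 0.957 and 1.46 FPKM and Mx2 at 1.34 and 1.82 FPKM, both with intervals that include equality.

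Genes of nucleotide and RNA metabolism held the highest ratio of the list beside values near equality. Rsad2 encodes viperin, an enzyme that makes a chain-terminating nucleotide. Its level was 1.71 FPKM in control lung and 6.58 in knockout lung, 3.85-fold higher (3.07 to 4.82), from about 107 and 318 reads. Cmpk2, a nucleotide kinase gene that lies 12763 bases from Rsad2 on chromosome 12 (mm9), was at 8.92 and 10.4 FPKM, 1.17-fold higher (1.021 to 1.334). The intervals of these neighbours do not overlap. Samhd1, which encodes an enzyme that breaks down deoxynucleotides, was at 63.1 and 57.0 FPKM, 1.11-fold lower (1.05 to 1.16). The exonuclease gene Isg20 was at 18.3 and 18.1 FPKM, level between the pools as a sum.

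The remaining 6 members all lay above equality, as did 56.8% of all genes over the floor. Ifi44 was at 5.38 FPKM in control lung and 8.99 in knockout lung, 1.67-fold higher (1.41 to 1.97). Rtp4, which encodes a transmembrane chaperone, was at 15.7 and 22.6 FPKM, 1.44-fold higher (1.26 to 1.65). Xaf1, a pro-apoptotic gene, was at 8.26 and 10.6 FPKM. The ADP-ribosyltransferase genes Parp9 and Parp14 stood at 11.5 and 14.3 FPKM and at 13.4 and 13.8 FPKM. For Parp14, and for Ifi35 at 30.2 and 31.5 FPKM, the interval includes equality, and both log2 ratios were slightly below 0 under other scalings of the libraries.

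**Figure D3:**
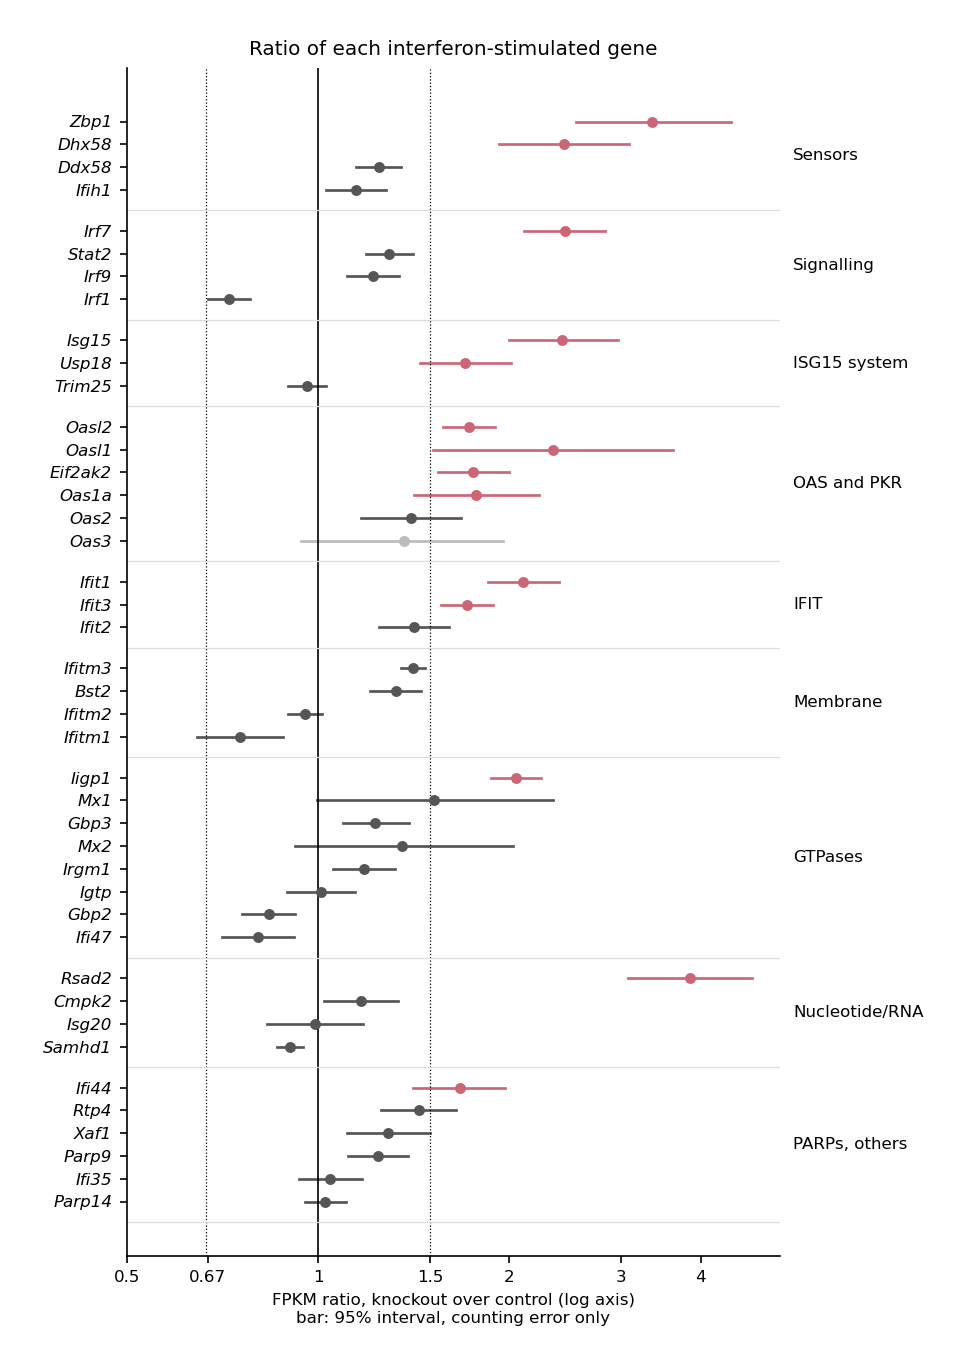
FPKM ratio of the knockout pool over the control pool for each of the 42 genes (log axis), with 95% counting intervals as bars and dotted lines at 1.5-fold in either direction. Red marks the 14 genes at least 1.5-fold higher on the log2(FPKM + 1) scale, pale grey the gene under the floor (Oas3), and Mx1 exceeds 1.5 only as a plain ratio.

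Members that lean to interferon gamma by textbook knowledge (Irf1, Gbp2, Gbp3, Irgm1, Igtp, Iigp1 and Ifi47) were centred at equality. Their median log2 ratio was 0.01, with 1 of 7 at least 1.5-fold higher, against 9.41% of all genes. The counting interval lay above 1 for 3 (Gbp3, Irgm1 and Iigp1) and below 1 for 3. Their summed level was 167 FPKM in control lung and 166 in knockout lung. The other 34 members over the floor had a median of 0.40, with 13 (38.2%) at least 1.5-fold higher and 29 (85.3%) above equality. Intervals lay above 1 for 25 of them and below 1 for 2. Of all genes over the floor, 56.8% were above equality, 33.3% had intervals above 1 and 21.9% had intervals below 1. Whether the 2 sets differ beyond the variation between mice cannot be tested with 1 library a genotype.

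**Figure D4:**
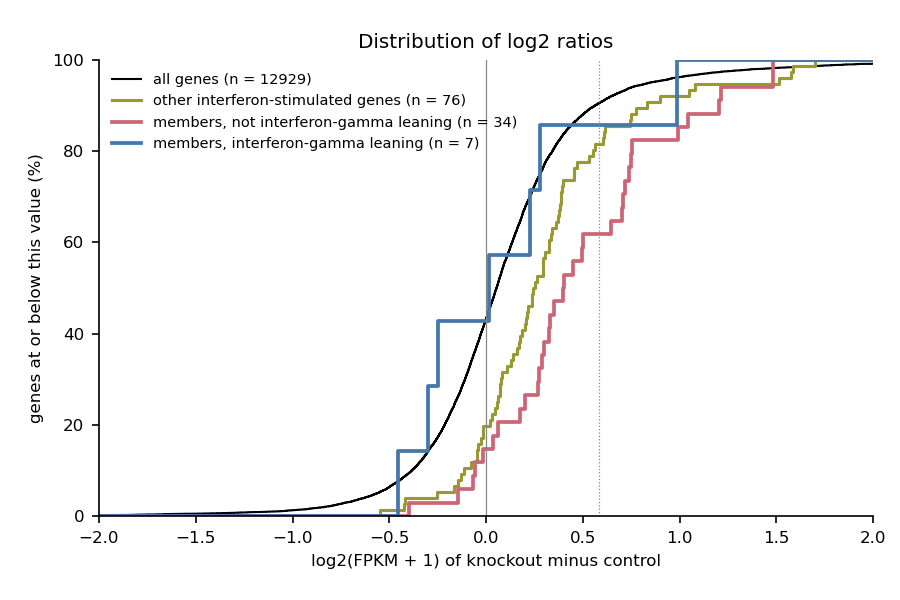
Cumulative share of genes (%) by log2(FPKM + 1) of knockout minus control, for all 12929 genes over the floor, 76 other interferon-stimulated genes, 34 members that do not lean to interferon gamma and 7 that do. The curve of the 34 lies to the right of that of all genes, and the curve of the 7 crosses it near 0.

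Of the 42 genes, 10 have several records, which are transcript models of 1 gene, and in some of them the records moved in opposite directions. Isg20 showed the most marked shift. Its record of 892 bases made up 6.33% of the gene in control lung and 46.4% in knockout lung, at 1.16 and 8.41 FPKM. Its record of 1083 bases stood at 17.2 and 9.73 FPKM, so that the sum was level. In Iigp1 the record of 2940 bases was at 10.1 FPKM in control lung and 29.2 in knockout lung. The record of 3123 bases was at 5.89 and 3.55 FPKM, and only the shorter record was higher. In Irf9 the record of 2343 bases was at 9.90 and 15.3 FPKM and that of 2459 bases at 8.16 and 5.95 FPKM, in opposite directions. Both records of Zbp1 were higher in the knockout pool, at 1.599 and 6.244 FPKM for that of 781 bases and at 1.64 and 4.61 FPKM for that of 1987 bases. Both records of Samhd1 stayed near their share, with the record of 4010 bases at 59.6% and 54.6% of the gene. Irf1 came almost wholly from its record of 2138 bases (50.6 and 35.5 FPKM). The record of 702 bases of Ifitm1 was at 30.4 and 25.8 FPKM and that of 676 bases at 9.05 and 3.91 FPKM. Both were lower, and the shorter record made up 22.9% of the gene in control lung and 13.2% in knockout lung. The coding record of Mx1 (2790 bases) was at 0.571 and 1.07 FPKM, and its non-coding record (2697 bases) at 0.386 and 0.382 FPKM. Mx2 came from its non-coding record of 2422 bases and Ifih1 from its record of 5519 bases, with the other record of each near 0. Records of a gene overlap, and their split is an estimate of the deposited quantification with no error given.

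**Figure D5:**
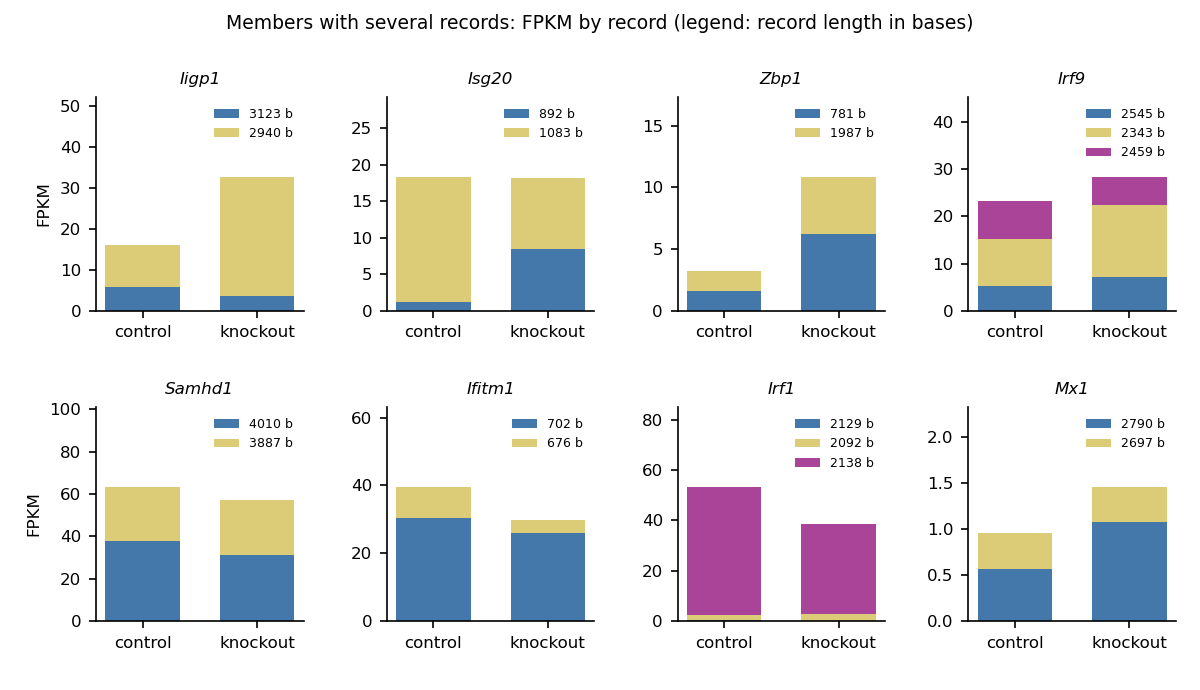
FPKM by record, stacked, in the control and the knockout pool for 8 members with several records (colours are records, with lengths in bases in each legend). Isg20 keeps its total while its record of 892 bases is higher and its record of 1083 bases lower in the knockout pool. The higher level of Iigp1 lies in the record of 2940 bases.

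A total of 19 members lie within 200000 bases of another member in 8 blocks of the genome (mm9). The Ifit block on chromosome 19, chr19:34625184-34724499, held 3 members, all above equality. The Oas block, chr5:121180342-121357534, held Oas2, Oas3 and Oas1a at 1.40, 1.37 and 1.77-fold higher. Of these, Oas3 was under the floor and had an interval that includes equality. In 4 of the other blocks (Rsad2 with Cmpk2, Parp14 with Parp9, Mx1 with Mx2, and Oasl2 with Oasl1) both members lay above equality. Intervals of Parp14, Mx1 and Mx2 include equality, and 56.8% of all genes over the floor lay above it. The last 2 blocks were mixed. The Ifitm block, chr7:148140738-148196643, held Ifitm3 above equality and Ifitm1 below it, and the Gbp block, chr3:142223016-142300972, held Gbp3 above and Gbp2 below.

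Interferon genes themselves were at or near 0 in both pools. Of the 19 interferon genes in the tables, 14 are listed at 0 in both libraries and the remaining 5 were at most 0.347 FPKM. That value is for Ifng in the knockout pool, from about 5.3 reads, against a listed 0 in the control pool. Ifnb1 was at 0.0892 FPKM in the knockout pool, about 0.9 reads, and listed at 0 in the control pool. Ifna1 and Ifnab, likewise listed at 0 in the control pool, were at 0.0696 and 0.0464 FPKM in the knockout pool, and Ifnz was at 0.0696 and 0.207 FPKM. The counting interval of the ratio lay above 1 for Ifng, with a lower bound of 1.16, and included 1 for the other 4.

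Of 32 other genes of the interferon pathway, all over the floor, 4 (12.5%) were higher by 1.5-fold or more in knockout lung, near the 9.41% of all genes. None was as far lower, against 4.63% of all genes, and the median log2 ratio was 0.18. Of the type I receptor chains, Ifnar1 was at 13.98 FPKM in control lung and 14.74 in knockout lung, with an interval that includes equality. Ifnar2 was at 41.8 and 51.4 FPKM, 1.23-fold higher (1.13 to 1.34). The chains of the gamma receptor moved apart. Ifngr1 was 1.27-fold lower (1.19 to 1.34) at 88.7 and 70.0 FPKM, and Ifngr2 was 1.41-fold higher (1.29 to 1.54) at 27.2 and 38.3 FPKM. The receptor chains of type III interferon, Il28ra and Il10rb, stood at 5.38 and 4.38 FPKM and at 37.4 and 39.9 FPKM.

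Kinases of the pathway differed little, with Jak1 at 43.2 and 45.9 FPKM, Jak2 at 14.5 and 14.8 FPKM and Tyk2 at 9.90 and 8.74 FPKM. The 4 that passed 1.5-fold are the cGAS and STING genes of DNA sensing and 2 inhibitors of cytokine signalling. Tmem173, which encodes STING, was at 7.17 and 12.6 FPKM, 1.76-fold higher (1.502 to 2.067). E330016A19Rik, the symbol these tables use for the cGAS gene (Mb21d1), was at 1.01 and 2.20 FPKM, 2.17-fold higher (1.58 to 2.97). Socs1 was at 2.93 and 5.30 FPKM, 1.81-fold higher (1.28 to 2.58). Socs3, which is also induced by interleukin-6, was at 8.07 and 18.8 FPKM, 2.33-fold higher (2.04 to 2.66).

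A further 85 interferon-stimulated genes outside the list were present in the tables, 76 of them over the floor. Of these 76, 14 (18.4%) were higher by 1.5-fold or more in knockout lung on the log2(FPKM + 1) scale, against 9.41% of all genes. None was as far lower, against 4.63%, and the median log2 ratio was 0.25. The 6 highest and 4 lowest are ranked on that scale, on which low genes count for less than in the plain folds given here. The highest was Ifi27l2a, of the ISG12 family, at 37.9 and 125 FPKM, 3.30-fold higher (2.88 to 3.80). The chemokine gene Cxcl10 was at 1.205 and 5.62 FPKM, 4.67-fold higher (2.85 to 7.98), and Lgals3bp, a secreted glycoprotein gene, at 57.7 and 120.5 FPKM, 2.09-fold higher (1.98 to 2.21). Mnda (2.21 and 8.57 FPKM), Slfn9 (0.674 and 3.78 FPKM) and Slfn3 (1.96 and 5.28 FPKM) complete the 6 highest. The 4 lowest were Slfn5, at 35.2 and 23.8 FPKM, Gbp7, at 13.6 and 9.88 FPKM, Gbp8, at 2.23 and 1.42 FPKM and 1.57-fold lower as a plain ratio (1.08 to 2.29), and Tgtp2, at 2.36 and 1.82 FPKM. The interval of Tgtp2 includes equality. Tgtp1, under the floor, went the other way at 0.534 and 0.879 FPKM, also with an interval that includes equality. Gbp7 and Gbp8 encode guanylate-binding proteins, as Gbp2 does, and that family did not go one way. Gbp9, at 15.3 and 13.7 FPKM, also had an interval below 1. Gbp4, at 15.8 and 19.2 FPKM, and Gbp6, at 8.055 and 9.209 FPKM, had intervals above 1, as had the member Gbp3. Those of Gbp5 and Gbp10 included 1. The set of other interferon-stimulated genes shares 1 gene with the pathway list and 9 with the antigen presentation list.

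For comparison, of 24 genes of MHC and antigen presentation over the floor none was 1.5-fold higher or lower, against those same shares of all genes, with a median log2 ratio of 0.10. The class II gene H2-Eb1 was lowest, at 131.6 and 101.7 FPKM, and the peptide transporter gene Tap1 highest, at 17.5 and 23.3 FPKM. Of 19 acute-phase and STAT3-SOCS3 genes over the floor, 9 (47.4%) were higher by 1.5-fold or more, against 9.41% of all genes, and 1 was as far lower, against 4.63% of all genes. Their median was 0.54. Saa3, which encodes a serum amyloid A protein, had the highest ratio, at 1.43 and 21.2 FPKM, and the interleukin-6 receptor gene Il6ra the lowest, at 16.5 and 8.42 FPKM. Both lists were chosen after values of these genes were seen, and differences between lists were not tested.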

How the data were processed

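The authors deposited FPKM per RefSeq transcript for each of 2 pooled lung libraries, 28107 records each, per the file headers. The deposited tables also give coverage (aligned bases over each base of a transcript), per the file headers. The submitters' processing notes list mm9 as the build and DESeq as a tool, without its role. The aligner, quantifier and handling of shared reads were not given in the sources used here. Libraries were grouped by the genotype in the labels.

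FPKM values were summed per gene symbol. A floor of a mean FPKM of 1, a pseudocount of 1 and folds of 1.5 and 2 on the log2(FPKM + 1) scale were used, and folds of single genes are plain FPKM ratios. Approximate reads are coverage times length divided by the bases 1 read adds, 47.5 in the control and 47.6 in the knockout library. That unit is the median over single-record genes holding 35 to 65 such bases. All 42 members are named. Of the pathway genes, ligands are counted and the 5 above 0 in either library named, receptors and kinases are named, and so are genes past 1.5-fold; 1 further gene of the rule is not reported here. Of the other interferon-stimulated genes the 6 highest and 4 lowest are named. Members and lists were chosen with earlier results of these data known. Of the listed symbols outside the members, Mb21d1, Ifi27, Iigp2, Trim30, Trim34, Rnf213, Helz2, Ifi44l and H2-Q4 matched no record. The calculation of the interval was tried on simulated read counts with known folds and counting error only. That trial did not cover the approximation of reads from coverage, or genes with few reads. Starts in mm9 are the deposited starts plus 1. Python 3.11.15, pandas 2.3.3, numpy 2.4.6, scipy 1.17.1 and matplotlib 3.10.9 were used.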

Additional observations from a re-analysis of the deposited data

How the results depend on the processing

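The median log2 ratio of the interferon-stimulated genes was between 0.28 and 0.41 under the alternatives run. These were pseudocounts of 0.1 and 3, no floor or a floor of 5, 3 other scalings, records with status OK only, the most abundant record only, and near-identical neighbours added. The last of these was chosen after seeing the data. All 54 records of the members have status OK in both libraries, so the filter on status could not change a member. The number at least 1.5-fold higher was 11 to 14. With a pseudocount of 3, Ifi44, Oas1a and Oasl1 left it, and with a floor of 5, Dhx58, Oasl1 and Rsad2, which fall under that floor. The number at least 2-fold higher was 8 with a pseudocount of 0.1, 3 with a floor of 5, and 4 to 6 otherwise. With only the most abundant record of each gene, 1 member, Isg20, was at least 1.5-fold lower, at a log2 ratio of -0.76. The 3 scalings moved the median of all genes from 0.05 to between -0.02 and 0.00, and Ifi35, Igtp and Parp14, all within counting error of equality, had ratios below equality under at least 1 of them. No member at least 1.5-fold higher reversed. No paired analysis was possible because each genotype has 1 library. Depth limits the low members most: Oas3, Oasl1, Mx1 and Mx2 rest on about 35 to 64 reads a library.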

Other observations

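The Schlafen genes, an interferon-responsive family that acts in lymphocyte growth and tRNA cleavage, did not go one way. These genes were picked after their values were seen. Slfn9 was 5.61-fold higher in knockout lung (3.99 to 7.98), Slfn3 2.69-fold (1.94 to 3.71) and Slfn8 2.50-fold higher (1.81 to 3.59), all from levels under 2 FPKM in the control pool. Slfn2 stood at 15.6 and 21.8 FPKM, 1.40-fold higher (1.222 to 1.597). Slfn5, the most abundant of them, was 1.48-fold lower (1.40 to 1.57). Slfn8 and Slfn9 are close in sequence, as are Slfn3 and Slfn4, so their separate values are uncertain.

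The interferon-inducible DNA-binding genes of the PYHIN family, likewise picked after their values were seen, were above equality where detected. Mnda was 3.87-fold higher (2.89 to 5.31), Ifi204 stood at 1.94 and 4.48 FPKM, Ifi205 at 3.32 and 5.58 FPKM and Ifi203 at 15.75 and 23.75 FPKM, while Ifi202b is listed at 0 in both pools. These genes also share sequence with each other. The cell death genes Casp4 (3.63 and 7.24 FPKM) and Mlkl (4.07 and 7.67 FPKM) were also higher in knockout lung, whereas Casp1 stood at 3.89 and 4.14 FPKM with an interval that includes equality.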
